A study of Mus musculus with 42 samples.

Results

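Genes of the coagulation and complement systems were followed in the liver, the white fat (WAT) and the brown fat (BAT) of mice given VAAM or water. VAAM is a mixture of amino acids that copies the composition of the saliva of Vespa larvae. The list held 39 genes, named for their place in the clotting cascade, in fibrinolysis or in complement. Of these, 38 were measured by 52 probe sets that name 1 gene alone, out of 18193 genes and 45037 probe sets. C3, which stands at the centre of complement, was not analysed here, because no probe set named it alone. Male ddY mice, given as 5 weeks of age, were acclimated for 1 week and then divided at random. They were given 1.8% VAAM or water by feeding tube, at 37.5 μL per g of body weight, in 5 daily administrations, and were taken 4 h after the last one. Food was removed on the last day, before the last dose. Each of the 6 groups held 7 mice, with 1 Affymetrix array per mouse and tissue and 42 arrays in all. The strain is outbred and no allele is named in the labels. The labels do not say whether arrays of the same number in different tissues came from the same mouse.

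Clotting factors are mostly proteases that the hepatocyte secretes as inactive precursors. Each is cut by the one before it, until thrombin turns fibrinogen into fibrin. Complement runs in the same blood, through a classical, a lectin and an alternative route that meet at C3 and end in a pore of terminal components. Macrophages and other cells outside the liver make some of these proteins as well, among them the C1q chains, properdin and the A chain of factor XIII.

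The promoters of a pair of fibrinogen genes and a pair of C1q genes are shown first, because the genes divided by tissue and these pairs stood on either side of that division. The sequences are RefSeq's for mouse build GRCm38.p6, read on the strand of the gene, and each run is the 250 bases before the annotated start. Capitals mark the match to a short motif on either strand. It is the half-site GTTAAT of HNF1, a liver transcription factor, in the fibrinogen genes, and GAGGAA, a core of sites for the macrophage factor PU.1, in the C1q genes. Matches to other motifs are left in lower case, among them 2 to GAGGAA in Fgb, at −159 and −125 from the start, and 1 to a C/EBP motif in each of Fga (−135) and Fgb (−80). The motifs were chosen after the levels were known, and these 4 genes were picked for print because they hold a match. Fgg and Serpinc1 among the liver genes and F13a1 among the genes seen in fat were searched in the same way for display, each for 1 motif, and had no match to it in the stretch that would have been printed, and C1qa had no window.
Fga, chr3:83025903-83026152, plus strand: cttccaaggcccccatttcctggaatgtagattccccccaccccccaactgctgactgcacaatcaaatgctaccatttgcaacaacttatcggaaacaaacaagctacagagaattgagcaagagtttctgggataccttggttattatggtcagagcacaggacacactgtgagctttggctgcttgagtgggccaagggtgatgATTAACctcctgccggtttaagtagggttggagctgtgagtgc
Fgb, chr3:83049864-83050113, minus strand: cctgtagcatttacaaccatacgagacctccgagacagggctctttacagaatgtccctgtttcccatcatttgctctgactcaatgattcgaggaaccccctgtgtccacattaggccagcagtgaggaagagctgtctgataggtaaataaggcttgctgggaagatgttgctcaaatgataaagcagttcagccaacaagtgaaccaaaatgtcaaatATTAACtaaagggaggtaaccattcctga
C1qb, chr4:136886201-136886450, minus strand: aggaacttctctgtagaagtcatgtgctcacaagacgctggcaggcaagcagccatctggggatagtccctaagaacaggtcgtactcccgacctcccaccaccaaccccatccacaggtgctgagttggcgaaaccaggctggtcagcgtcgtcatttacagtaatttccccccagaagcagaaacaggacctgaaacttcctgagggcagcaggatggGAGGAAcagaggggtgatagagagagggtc
C1qc, chr4:136892915-136893164, minus strand: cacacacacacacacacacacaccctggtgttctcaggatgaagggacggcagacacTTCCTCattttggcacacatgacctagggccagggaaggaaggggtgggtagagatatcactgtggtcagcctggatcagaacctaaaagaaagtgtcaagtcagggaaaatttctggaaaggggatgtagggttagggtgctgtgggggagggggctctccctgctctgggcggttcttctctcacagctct

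A level here is the mean of the deposited log values of a probe set, and levels were compared between tissues for the same probe set only. The array medians were 6.73 in liver, 6.91 in WAT and 6.77 in BAT, so part of any small difference between tissues may be one of scale. A gene was counted as higher in a tissue when its mean was over 1 log unit above the other and the 7 water mice of each tissue did not overlap. The labelled tissues carried their own markers at over 1 log unit above the tissue median. These were 8 of 8 hepatocyte markers in liver and 0 of 8 in each fat, 8 of 8 adipocyte markers in WAT and 7 of 8 in BAT, and 9 of 10 brown adipocyte markers in BAT. Liver carried 3 of 8 adipocyte markers and 2 of 10 brown adipocyte markers at that height too. WAT also carried 5 of 8 epididymis markers and BAT 5 of 7 skeletal muscle markers at that height.

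Most of the genes belonged to the liver. In water mice, 30 of 38 were higher in liver than in WAT, where 5.64% of all genes were, and 33 of 38 were higher in liver than in BAT, where 6.84% of all genes were. The median of the 38 was 5.39 log units higher in liver than in WAT (−0.13 for all genes) and 5.48 higher in liver than in BAT (−0.042 for all genes). In the other direction, F3 and F13a1 were the 2 of 38 higher in WAT than in liver (12.5% of all genes) and also the 2 higher in BAT than in liver (7.08%). Between the fats, 6 of 38 were higher in WAT (6.79% of all genes) and 1, Kng1, was higher in BAT (2.55%). The limit of 1 ran between the C1q chains, since C1qc was 1.01 higher in liver than in BAT and C1qb 0.99. VAAM mice gave 30, 33 and 6 genes in place of the 30, 33 and 6 of the water mice. Mice of a tissue differed far less than the limit of 1, so this swap could hardly move the counts. For the same reason the demand for no overlap added little to that limit. The list is known for being made by the liver, so these counts describe the tissues and are no finding about VAAM.

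By these levels 28 genes were seen in the liver alone and 10 in fat as well. A gene was counted as seen in fat when its level in either fat was over 1 above the tissue median, or above that median and within 1 of the liver. By the probe set that stands for each, Cfb, C2 and Cfp met this in WAT alone and Kng1 in BAT alone. The 28 liver genes lay between 9.16 and 14.46 in liver, between 5.80 and 7.34 in WAT and between 5.81 and 7.38 in BAT, and 3 of them were above the median of WAT and 3 above that of BAT. They held all 3 fibrinogen chains, whose products form the clot. Fgg stood at 14.46 in liver, 6.15 in WAT and 6.19 in BAT, Fga at 13.89, 5.97 and 6.07, and Fgb at 13.21, 6.06 and 6.17. They also held prothrombin (F2), at 13.68 in liver, 6.52 in WAT and 6.61 in BAT, plasminogen (Plg), which dissolves fibrin once active, and antithrombin (Serpinc1), which blocks thrombin. All of the terminal components were in this class, with Hc, which is mouse C5, among them.

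The remaining liver genes are given as liver, WAT and BAT in that order. Of the contact and intrinsic factors, which start clotting on a surface and carry it to factor X, F12 at 10.69, 6.67 and 6.07, Klkb1 at 11.68, 6.34 and 6.20, F11 at 10.37, 6.39 and 6.58 and F9 at 12.04, 5.99 and 5.90 were all far higher in liver. In the common pathway, which ends in thrombin, the levels were F10 at 12.22, 6.38 and 6.46 and F5 at 11.73, 6.60 and 6.24. In fibrinolysis they were Plg at 13.88, 6.70 and 6.35 and Serpinf2 at 12.31, 6.87 and 6.73. Of the anticoagulants, protein C (Proc), antithrombin and heparin cofactor II (Serpind1), the levels were Proc at 12.67, 6.43 and 6.55, Serpinc1 at 13.86, 6.55 and 6.62 and Serpind1 at 12.48, 6.41 and 6.77. The lectin pathway, which reads sugars on microbes, had Mbl1 at 11.96, 6.31 and 6.32, Mbl2 at 12.93, 6.17 and 6.12 and Masp2 at 9.61, 6.50 and 6.67. The regulator Cfi at 13.65, 6.64 and 6.89 was likewise low in both fats. Among the terminal components there were Hc at 10.77, 6.73 and 6.25, C6 at 9.16, 7.28 and 6.53 and C8a at 12.79, 6.06 and 5.83, followed by C8b at 11.20, 6.43 and 6.35, C8g at 13.16, 7.07 and 7.38 and C9 at 13.90, 6.52 and 6.72. C6 had the lowest difference between liver and WAT among the 28 but for Masp1, at 1.89.

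**Figure D1:**
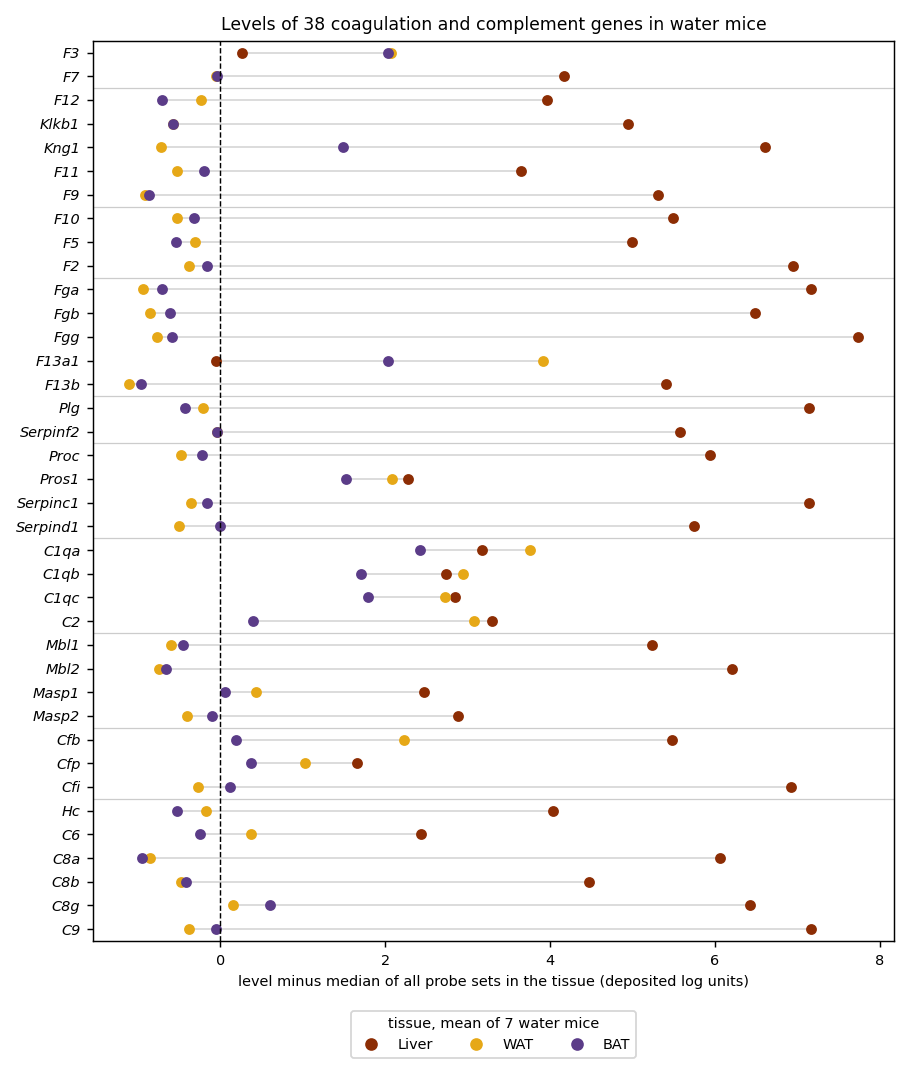
Mean level of each gene in the 7 water mice of liver, WAT and BAT, as the distance from the median of all probe sets in that tissue in deposited log units, with grey lines between the functional groups from initiation at the top to the terminal pathway at the bottom. Dots are to be compared within a row only, because each row is another probe set. Liver stands to the right in most rows, while F3 and F13a1 stand to the left in liver and the C1q chains lie close together in the 3 tissues.

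The 10 genes seen in fat were of other kinds. F13a1, the A chain of the factor that crosslinks fibrin, stood at 6.67 in liver, 10.82 in WAT and 8.80 in BAT, while its carrier F13b stood at 12.13 in liver, 5.80 in WAT and 5.81 in BAT. The 2 subunits were thus seen in opposite tissues. F3, tissue factor, which starts clotting where blood meets cells outside the vessel, stood at 6.99 in liver, 8.97 in WAT and 8.80 in BAT. Its partner F7 was a liver gene, at 10.90 in liver, 6.86 in WAT and 6.74 in BAT. The C1q chains C1qa, C1qb and C1qc, which bind antibody at the start of the classical route, stood at 9.90, 9.47 and 9.58 in liver, 10.67, 9.85 and 9.63 in WAT and 9.20, 8.48 and 8.57 in BAT. Pros1, protein S, the cofactor of activated protein C, stood at 9.002 in liver, 8.99 in WAT and 8.29 in BAT. In bulk tissue, fewer cells of a type and less RNA per cell cannot be told apart.

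WAT and BAT differed for some of these genes. C2, the classical protease that forms a convertase with C4, stood at 10.03 in liver, 9.98 in WAT and 7.17 in BAT. Cfb, which takes the same part in the alternative route, stood at 12.21 in liver, 9.14 in WAT and 6.97 in BAT. Properdin (Cfp), which stabilizes the alternative convertase, stood at 8.39 in liver, 7.94 in WAT and 7.15 in BAT. C2 and Cfb were thus 2.81 and 2.17 higher in WAT than in BAT. Kng1, the kininogen gene, was seen in BAT by 1 of its 2 probe sets, at 13.34 in liver, 6.19 in WAT and 8.27 in BAT, and its other probe set stood at 12.57, 6.08 and 6.27. Those probe sets disagree on BAT, so the place of Kng1 among the genes seen in fat rests on 1 of them. The 5 probe sets of Masp1 disagreed too. By 3 of them Masp1 was a liver gene, and the one that stands for it in this comparison stood at 9.19 in liver, 7.34 in WAT and 6.84 in BAT. The brightest in liver stood at 10.60, 6.44 and 6.15, and another was below the median in all 3 tissues.

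Promoter windows of 250 bases before to 50 after the start were found for 30 of the 38 genes, 24 of the liver genes with 25 windows and 6 of the genes seen in fat with 7 windows. Windows were counted rather than genes, a change made after a first count of 1 window a gene had been seen, and matches may overlap one another. On both strands, GTTAAT was in 7 of 25 liver windows, 1 of 7 windows of genes seen in fat and 7.1% of all 32851 windows. The C/EBP motif TTGCNNAA was in 7 of 25, 0 of 7 and 10.8%. GAGGAA was in 2 of 25, 5 of 7 and 28.3%. The genes seen in fat with GAGGAA in a window were Cfp, C1qb, C1qc and F13a1, and F13a1 has 2 windows. CAAAGTCCA, a match to sites of HNF4, was in 0 of 25, 0 of 7 and 0.475%, and the TATA box TATAAA in 2 of 25, 1 of 7 and 13.6%. In the runs printed above the match lies at −43 from the start in Fga, −29 in Fgb, −30 in C1qb and −193 in C1qc. A match describes the letters and not a bound site.

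For VAAM against water, each mouse is given as its distance from the mean of the water mice in units of the SD within groups, and a difference as VAAM minus water in the same unit, ± the standard error, with n = 7 a group. The deposited values came from the distribution free weighted method, which pulls the arrays of a tissue together by an amount that differs between probe sets, so a difference is not a fold change. The median SD over the 14 arrays was 1.08e-05 log units in liver, 1.41e-05 in WAT and 1.06e-05 in BAT. Where a gene had several probe sets, the brightest one of the tissue stands for it. Exact p-values are two-sided over all splits of the mice into 7 and 7, and adjusted p-values are those of limma over all 45037 probe sets. The liver of VAAM mouse 6, the WAT of VAAM mouse 1 and the BAT of VAAM mice 3 and 5 stood apart from the other arrays of their tissue.

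No gene of the list passed limma in any tissue. At an adjusted p under 0.05 the count was 0 of 38 in liver, in WAT and in BAT, and over all genes it was 0% in each. Before adjustment, at a p under 0.05, the liver had 2 higher and 1 lower (3.96% and 4.84% of all genes), WAT had 0 and 0 (1.6% and 1.86%), and BAT had 2 and 2 (2.12% and 2.24%). Rank products, the method the study used, at a false discovery rate under 0.05, called 6 genes higher and 1 lower in liver (3.26% and 1.8% of all genes), 4 higher and 0 lower in WAT (2.81% and 1.88%), and 6 higher and 1 lower in BAT (2.83% and 1.78%). This method ranks differences on the deposited scale, where genes of wide spread come first. The SD of the called genes lay between percentiles 96.7 and 99.7 of all probe sets in liver, 95.3 and 99.2 in WAT, and 95.03 and 99.7 in BAT. Ranked after each probe set was divided by its SD, it called 1 gene of the list in liver, C8g, which was lower, and 0 in WAT and in BAT. Rank products calls are therefore given below beside the difference in SD. The share of all genes called at unit SD is not given here, so that count cannot be set against it.

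**Figure D2:**
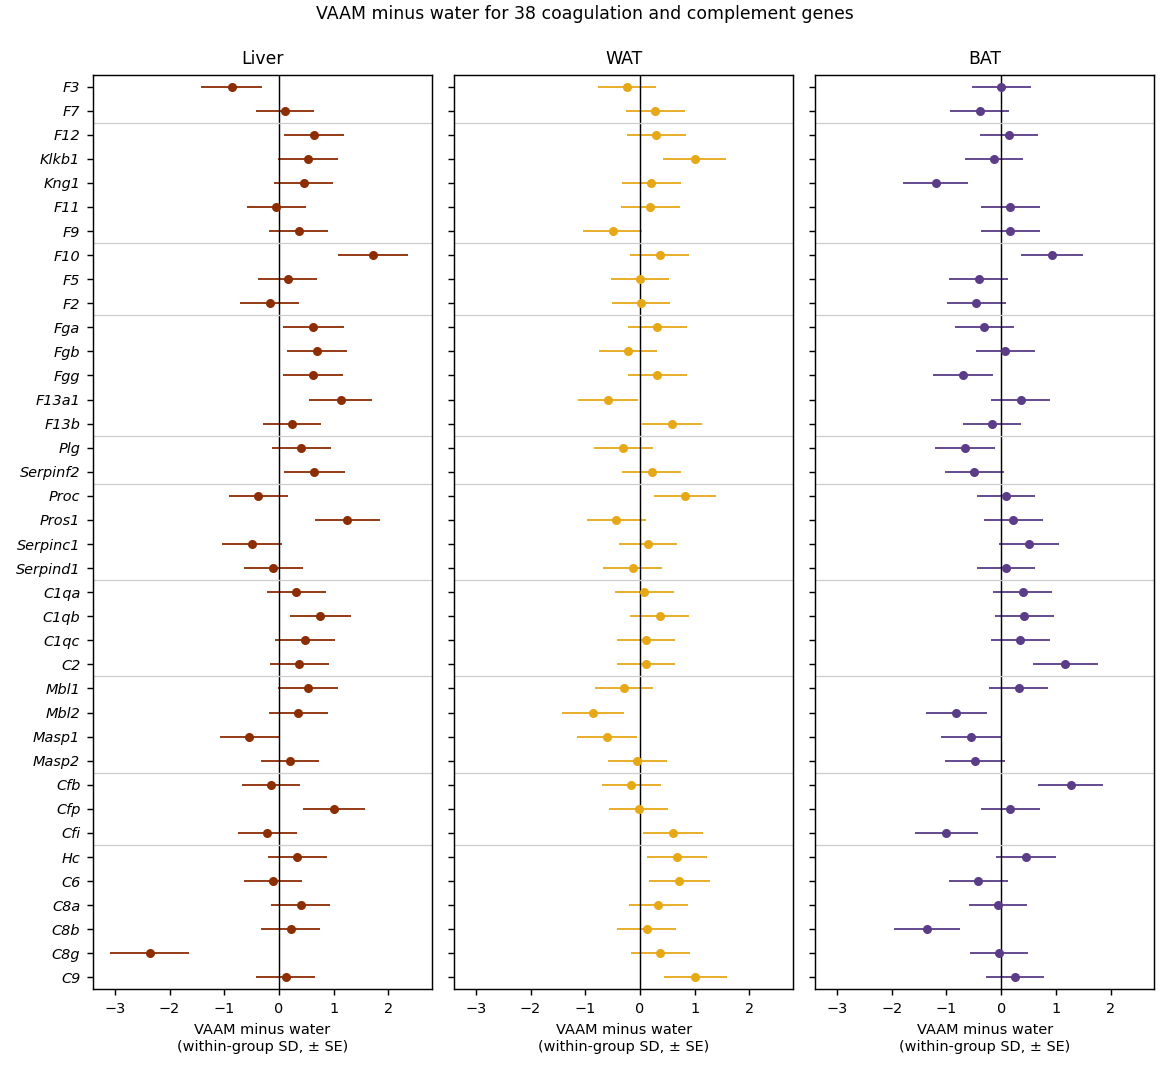
VAAM minus water for each gene in liver, WAT and BAT, in units of the SD within groups, with bars for the standard error of the difference (n = 7 mice a group) and grey lines between functional groups. C8g in liver lies farthest from 0, at −2.36, and most of the other bars cross or touch 0.

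In the liver, the gene with the smallest p was C8g, the gamma chain of the C8 complex of the complement pore. In water mice it lay between −0.73 and 0.74 with a median of 0.12, and in VAAM mice between −4.74 and −1.19 with a median of −2.23. All 7 VAAM mice were below all 7 water mice, and the share of all genes with such a separation is not given here. Any full separation of the groups gives the same exact p, so that p adds nothing to it. The difference was −2.36 ± 0.72 (exact p 0.000583, adjusted p 0.33), and it lay between −2.81 and −2.20 when any 1 mouse was left out. On the deposited scale this was a difference of −1.13e-05 log units at a level of 13.16. Its SD stood at percentile 20.5 of all probe sets, and rank products did not call it on that scale but did at unit SD (false discovery rate 0.0114). After quantile normalization its values no longer varied. The chains that join it in the complex did not share its sign, with C8a at +0.40 and C8b at +0.21, and C9, which forms the pore, was at +0.12. In the RefSeq annotation C8g overlaps Fbxw5, whose own probe set was at +0.40 ± 0.54 in the liver.

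F10, factor X, which becomes the protease that makes thrombin, had the smallest p among the higher genes. It lay between −1.15 and 1.10 with a median of 0.0043 in water mice, and between −0.19 and 3.01 with a median of 1.80 in VAAM mice. The groups overlapped, and 6 of the 7 VAAM values exceeded the median of the water mice. The difference was +1.71 ± 0.64 (exact p 0.0117, adjusted p 0.40). All 3 of its probe sets were higher, at +1.71, +1.30 (exact p 0.0332) and +0.85, and without VAAM mouse 6, which was the lowest, the difference was +2.42. After quantile normalization the values of its probe set no longer varied. The genes beside it in the common pathway stayed near 0, with F5 at +0.16 and prothrombin at −0.17.

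Pros1 in liver lay between −2.09 and 2.09 with a median of 0.44 in water mice, and between 0.50 and 1.76 with a median of 1.41 in VAAM mice. All 7 VAAM mice were above the water median, inside the range of the water mice. The difference was +1.25 ± 0.59 (exact p 0.0338, adjusted p 0.51), but it was −1.07 after quantile normalization and +2.01 without water mouse 2, and its unadjusted p was not under 0.05 without water mouse 4, 5 or 7 or without VAAM mouse 1, 3, 6 or 7, nor with mice of one number as a block. F13a1, low in liver, lay between −0.89 and 0.90 with a median of −0.003 in water mice, and between −0.83 and 2.86 with a median of 1.39 in VAAM mice. The difference was +1.13 ± 0.58 (exact p 0.0583, adjusted p 0.55), and +1.75 without VAAM mouse 6. The other lower genes with the smallest p were F3, at −0.87 ± 0.56 (exact p 0.131, adjusted p 0.65), and Masp1, at −0.54 ± 0.55 (exact p 0.346, adjusted p 0.80). Masp1 was at −0.23 without VAAM mouse 6 and at −0.97 without VAAM mouse 7. F3 lay between −0.99 and 1.29 in water mice and between −2.79 and 0.81 in VAAM mice, and Masp1 between −0.89 and 0.97 and between −2.70 and 1.27, so both overlapped. The other probe sets of Masp1 were at +0.16, +0.69, +0.92 and +1.25, against the sign of this one.

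The genes that rank products called higher in the liver were C1qb, C1qc, Cfp, F12, Fgb and Hc, and the one called lower was C6. C1qb lay between −1.37 and 1.29 in water mice and between −0.72 and 2.69 in VAAM mice (+0.76 ± 0.56, exact p 0.185). Cfp lay between −1.0 and 1.42 in water mice and between −0.39 and 3.14 in VAAM mice (+1.01 ± 0.57, exact p 0.0793). In both, VAAM mouse 5 was the highest and the groups overlapped. Over the 12 macrophage and Kupffer cell markers, 12 were higher and 0 lower in VAAM mice with a median of +0.67. Their mean score ran from −0.91 to 0.66 in water mice and from −0.31 to 2.35 in VAAM mice, highest in VAAM mouse 5, and 8 of the 12 stood over 1 above the tissue median. Endothelial markers were also higher in 7 of 8 (median +0.39) and fibroblast markers in 5 of 6 (median +0.56). Lower were 5 of 5 dendritic and B cell markers and 7 of 7 skeletal muscle markers. The part of these cells in the values of C1qb, C1qc and Cfp was not tested. The others were C1qc at +0.48 ± 0.54, F12, the contact factor that starts the intrinsic route, at +0.64 ± 0.55, Fgb at +0.70 ± 0.55, Hc at +0.34 ± 0.54 and C6 at −0.11 ± 0.54. The sign of C6 turned without water mouse 2 (+0.19) and without VAAM mouse 1 (+0.039), so the sign of its mean rests on single mice. Without VAAM mouse 5, C1qc was at +0.18 and F12 at +0.97, and Hc was at +0.085 without VAAM mouse 4 and +0.75 without water mouse 5. Beside that of F10, the other probe sets with an exact p under 0.05 were 1 of Cfp at +1.28 (exact p 0.0408), 1 of C2 at +1.08 (exact p 0.049) and 1 of Masp1 at +1.25 (exact p 0.0396). Without VAAM mouse 6, which stood apart, all 7 of these calls remained in the same direction.

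**Figure D3:**
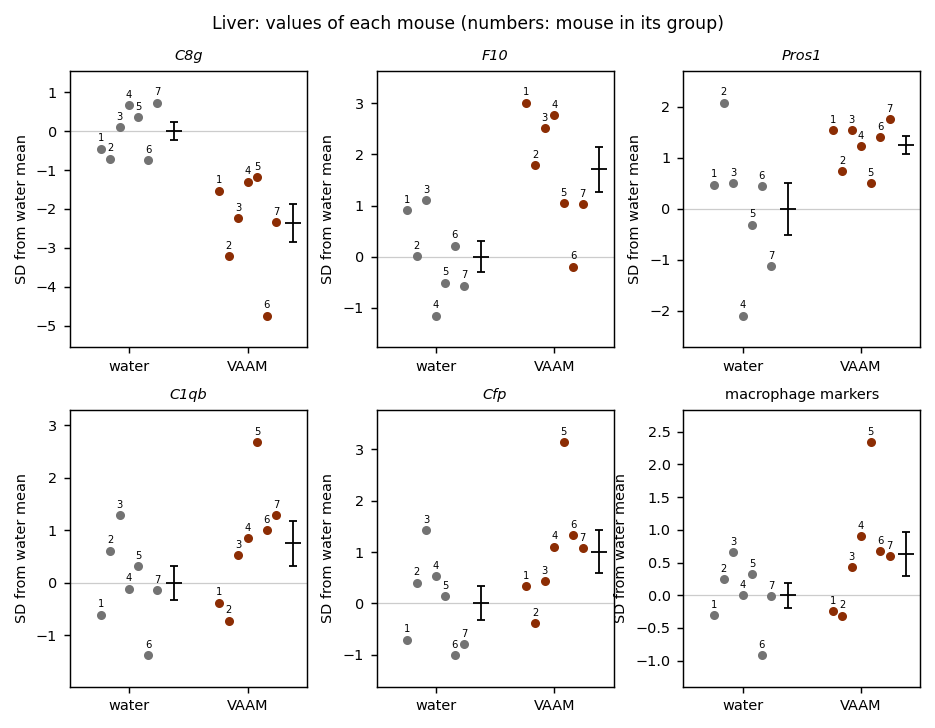
Liver values of each mouse for 5 genes, and the mean score of 12 macrophage and Kupffer cell markers, as the distance from the mean of the water mice in units of the SD within groups. Numbers name the mouse in its group, and black bars are the mean and its standard error (n = 7). The C8g values of VAAM mice all lie below those of water mice, and VAAM mouse 5 is the highest in C1qb, Cfp and the marker score.

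Over the whole list, 27 genes had a higher and 11 a lower mean in the liver of VAAM mice, against 8529 and 9663 of all genes, and the median difference was +0.35 (−0.050 for all genes). After quantile normalization 14 were higher and 5 lower, and the other 19 had no spread left, while 4627 of all genes were higher and 12843 lower with a median of −0.32. The 10 genes seen in fat were higher in 8 cases with a median of +0.47, and the 28 liver genes in 19 with a median of +0.22. The 5 fibrin formation genes were all higher, from +0.24 for F13b to +1.13 for F13a1, with Fga at +0.63 and Fgg at +0.62, and 0 of them passed limma at an unadjusted p under 0.05. The 4 anticoagulant genes were divided, with Pros1 higher and antithrombin (−0.49), protein C (Proc, −0.38) and heparin cofactor II (Serpind1, −0.10) lower.

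In WAT the differences were smaller. The higher genes with the smallest p were Klkb1, plasma kallikrein, at +0.997 ± 0.57 (exact p 0.0688, adjusted p 1), C9 at +1.01 ± 0.57 (exact p 0.0845, adjusted p 1) and Proc at +0.82 ± 0.56 (exact p 0.152, adjusted p 1). Klkb1 lay between −0.82 and 1.13 with a median of −0.21 in water mice, and between −0.31 and 3.51 with a median of 0.83 in VAAM mice. C9 lay between −0.75 and 1.6 in water mice and between −0.67 and 2.78 in VAAM mice, and Proc between −1.14 and 1.02 and between −0.77 and 2.35. The groups overlapped in all 3. These are liver genes, whose levels in WAT of 6.34, 6.52 and 6.43 were below the tissue median, and after quantile normalization they were lower, at −0.56, −0.95 and −0.62. The lower genes with the smallest p were Mbl2 at −0.86 ± 0.56 (exact p 0.132, adjusted p 1), Masp1 at −0.61 ± 0.55 (exact p 0.277, adjusted p 1) and F13a1 at −0.58 ± 0.55 (exact p 0.293, adjusted p 1). Without VAAM mouse 1, F13a1 was at −0.33 and Masp1 at −0.39. Of these, F13a1 alone was high in WAT, and it lay between −1.19 and 1.46 in water mice and between −2.33 and 0.79 in VAAM mice. Mbl2 lay between −1.71 and 1.59 in water mice and between −2.24 and 0.37 in VAAM mice, and Masp1 between −1.06 and 1.21 and between −2.06 and 0.50.

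Rank products called Fga, Serpinf2, Cfi and C6 higher in WAT. Fga was near the water mean in all but 2 of the 14 mice, at 1.46 in water mouse 1 and 3.15 in VAAM mouse 1, and the other 12 mice lay between −0.38 and −0.029. Serpinf2, the antiplasmin gene, was high in the same pair, at 1.78 in water mouse 1 and 2.87 in VAAM mouse 1, and the others lay between −0.45 and −0.086. The mean score of the epididymis markers was also highest in these mice, at 1.34 in water mouse 1 and 2.13 in VAAM mouse 1, while the other mice lay between −0.50 and 0.64. Of those 8 markers 3 were higher and 5 lower by group mean, with a median of −0.020, and their part in the values of Fga and Serpinf2 was not tested. The differences were +0.32 ± 0.54 for Fga (exact p 0.519) and +0.21 ± 0.54 for Serpinf2 (exact p 0.534), and without VAAM mouse 1 they were −0.32 and −0.40. Without that mouse Fga was no longer called, and Serpinf2 was still called higher by rank products with its mean difference below 0. Cfi, which cuts C3b and C4b, was at +0.61 ± 0.55 (exact p 0.274), and at +1.05 without VAAM mouse 7, and C6 at +0.72 ± 0.55 (exact p 0.202), the latter at −0.015 after quantile normalization.

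**Figure D4:**
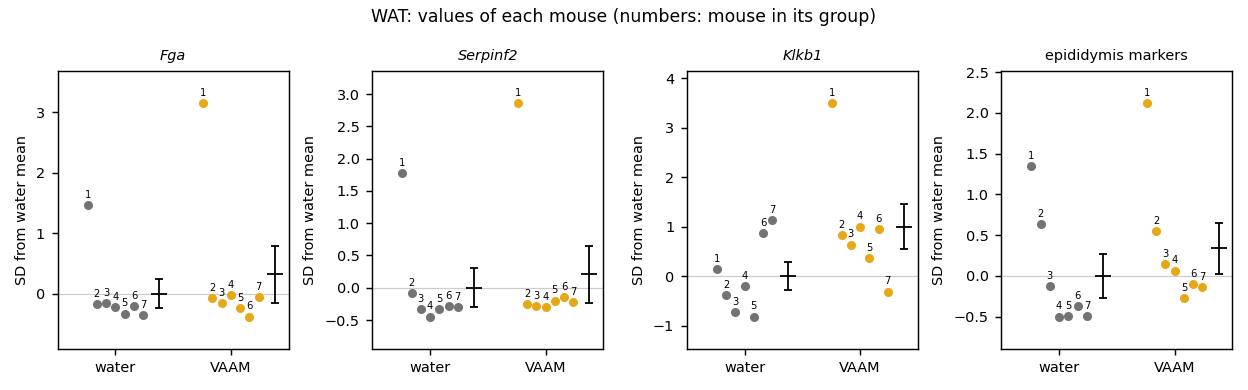
WAT values of each mouse for Fga, Serpinf2 and Klkb1, and the mean score of 8 epididymis markers, as the distance from the mean of the water mice in units of the SD within groups, with mouse numbers and the mean and its standard error (n = 7). Mouse 1 of each group is far above the others in Fga and Serpinf2, and is the highest of its group in the marker score.

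Of the other genes that WAT itself expressed, none had a p under 0.05. The C1q chains C1qa, C1qb and C1qc were at +0.077, +0.36 and +0.11, C2 at +0.11, Cfp at −0.028, Pros1 at −0.43 and F3 at −0.24. Without VAAM mouse 1, rank products called C1qb higher (false discovery rate 0.0225). Cfb was at −0.16 ± 0.54, with VAAM mouse 1 at −3.18 and the other VAAM mice between −0.12 and 0.77. Over the list, 25 genes had a higher and 13 a lower mean in VAAM mice (9147 and 9045 of all genes), and the median was +0.13 (0.0047 for all genes). The 10 genes seen in fat were higher in 5 cases, and in 8 without VAAM mouse 1. After quantile normalization 3 were higher and 35 lower, when 814 of all genes were higher and 17353 lower with a median of −0.47. The 6 terminal components were all higher on the deposited values, from +0.12 for C8b to +1.01 for C9, and all were below or within 1 log unit of the tissue median. The 4 lectin pathway genes were all lower by the brightest probe set, from −0.86 to −0.051. Of these, Mbl1, Mbl2 and Masp2 were below the tissue median. The other probe sets of Masp1 were divided, at +0.80, −0.64, −0.91 and −0.38.

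In BAT, Cfb had the smallest p among the higher genes. It lay between −0.39 and 0.84 with a median of −0.22 in water mice, and between 0.030 and 4.13 with a median of 1.12 in VAAM mice. All 7 VAAM mice were above the water median, and VAAM mouse 3 was far above the rest. The difference was +1.28 ± 0.59 (exact p 0.00816, adjusted p 0.95), and it was +1.68 without VAAM mouse 3, where the SD was smaller, and +1.28 after quantile normalization. Rank products called it higher, with and without the arrays that stood apart. C2 lay between −1.66 and 1.28 with a median of 0.035 in water mice, and between −0.088 and 3.27 with a median of 1.04 in VAAM mice. Its difference was +1.17 ± 0.59 (exact p 0.0396, adjusted p 0.95), with its other probe sets at +1.19 and +1.27. Without VAAM mice 3 and 5 it was +0.95, no longer called by rank products. Cfb and C2 are low in BAT, at 0.19 and 0.39 above the tissue median. The third of the higher genes was F10, at +0.93 ± 0.57 (exact p 0.114, adjusted p 0.95), between −1.29 and 0.78 in water mice and between −0.96 and 2.25 in VAAM mice. Its level was below the tissue median, its other probe sets were at −0.72 and −0.00026, and it was −0.23 after quantile normalization and +1.47 without VAAM mouse 7.

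The lower genes were C8b, Kng1 and Cfi. C8b lay between −1.14 and 0.999 with a median of 0.27 in water mice, and between −2.95 and 0.098 with a median of −1.55 in VAAM mice. All 7 VAAM mice were below the water median, and the difference was −1.35 ± 0.60 (exact p 0.0286, adjusted p 0.95) at a level below the tissue median. Its unadjusted p was not under 0.05 with mice of one number as a block, after quantile normalization, or without the arrays that stood apart. Kng1 lay between −1.04 and 0.72 with a median of 0.043 in water mice, and between −3.32 and 0.25 with a median of −0.83 in VAAM mice. The difference was −1.20 ± 0.59 (exact p 0.0408, adjusted p 0.95), 2 of the 7 VAAM values exceeded the median of the water mice, and its other probe set was at −0.61 ± 0.55. Rank products called Kng1 lower, also without the arrays that stood apart. Cfi lay between −1.03 and 1.43 in water mice and between −2.39 and 0.13 in VAAM mice, at −1.001 ± 0.57 (exact p 0.0892, adjusted p 0.95). Of the 4 genes with an unadjusted p under 0.05, 1 was left without VAAM mouse 6 (Cfb), without water mouse 4 (C8b) or without water mouse 7 (C8b). Further, 2 were left without water mouse 1, 2, 3 or 5, or without VAAM mouse 3 or 7. Without VAAM mice 3 and 5 they were Cfb and Kng1, with Cfi, F7 and Serpinc1 added.

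The C1q chains and Cfp in BAT turned with 1 mouse. Rank products called C1qa, C1qb, C1qc and Cfp higher, at +0.40, +0.42, +0.35 and +0.17, each ± 0.54 (exact p 0.559, 0.513, 0.617 and 0.759). VAAM mouse 3 was at 3.06, 3.02, 3.04 and 2.62, while the VAAM medians were 0.058, −0.011, −0.044 and −0.14. Without VAAM mouse 3 the differences were −0.083, −0.018, −0.17 and −0.35. Without VAAM mice 3 and 5, which stood apart, rank products called all 4 lower (false discovery rates 0.00441, 0.00243, 0.00818 and 0.0103), and its counts over the list went from 6 higher and 1 lower to 1 higher and 5 lower. The share of all genes called without these mice is not given here. The macrophage and Kupffer cell markers were higher in 8 and lower in 4 of 12, with a median of +0.18. Their mean score ran from −0.60 to 1.45 in water mice and from −0.81 to 1.72 in VAAM mice, highest in VAAM mouse 3. That mouse was also the highest of the VAAM mice in the neutrophil, endothelial and fibroblast scores. The part of these cells in the values was not tested.

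**Figure D5:**
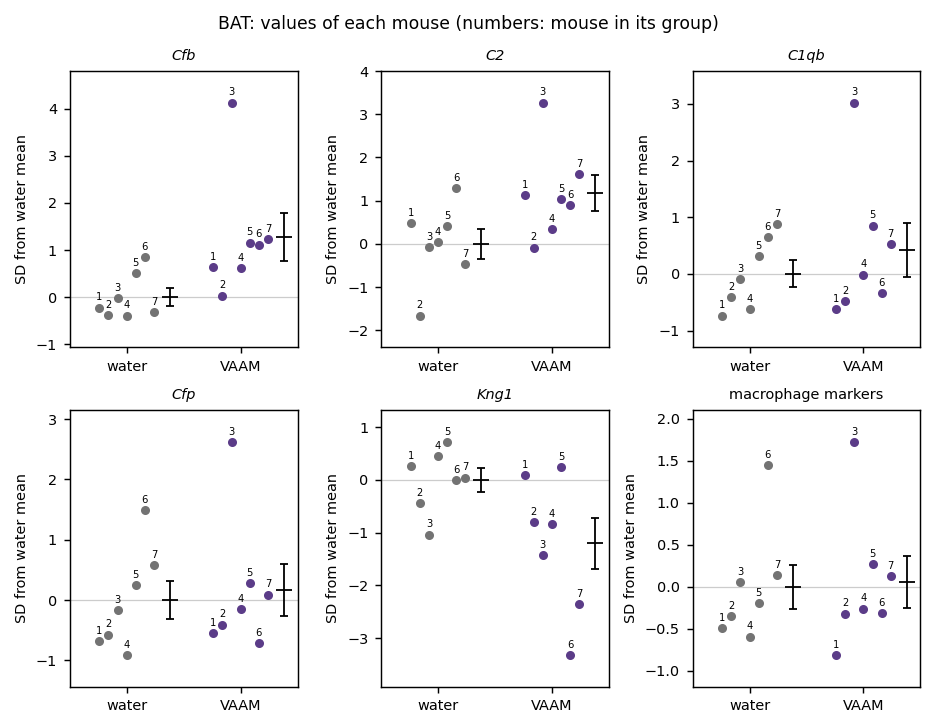
BAT values of each mouse for 5 genes, and the mean score of 12 macrophage and Kupffer cell markers, as the distance from the mean of the water mice in units of the SD within groups, with mouse numbers and the mean and its standard error (n = 7). VAAM mouse 3 is the highest VAAM mouse in every panel but Kng1, and the other VAAM mice lie among the water mice in C1qb and Cfp.

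Over the list in BAT, 20 genes had a higher and 18 a lower mean in VAAM mice (9354 and 8839 of all genes), with a median of +0.039 (0.022 for all genes). After quantile normalization the split was 9 higher and 29 lower, when 2165 of all genes were higher and 15936 lower with a median of −0.21. The 10 genes seen in fat, of which Cfb, C2 and Cfp met that rule in WAT alone, were higher in 9 cases with a median of +0.35. The 28 liver genes were higher in 11 with a median of −0.15. Without VAAM mouse 3 alone, 3 of those 10 and 13 of those 28 were higher. Without the arrays that stood apart, 15 of 38 were higher and 23 lower, with a median of −0.17. Of all genes, 8687 were then higher and 9506 lower, with a median of −0.032.

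Whether the effect of VAAM differed between tissues was tested on values scaled to the SD within groups. That SD was estimated from the same mice and then treated as known, so the p-values of this test run too small. Of the 52 probe sets, 0 passed limma at an adjusted p under 0.05 for liver against WAT (0.249% of all probe sets), liver against BAT (0.153%) or WAT against BAT (0.02%). At an unadjusted p under 0.05 there were 5, 4 and 1, where all probe sets gave 10.1%, 8.37% and 5.18%. The smallest p belonged to C8g in the contrasts of liver, at −2.73 against WAT (adjusted p 0.0798) and −2.33 against BAT (adjusted p 0.206), and for WAT against BAT to Cfi, at 1.61 (adjusted p 0.899). Over the 3 tissues, 8 of 38 genes had a higher mean in VAAM mice in each (C1qa, C1qb, C1qc, C2, C9, F10, F12 and Hc) and 1, Masp1, a lower mean in each. Of all genes, 14% were higher and 14.4% lower in each. Without VAAM mouse 3 in BAT the counts were 6 and 2, and the C1q chains were no longer among the 6. Masp1 and C2 were read from a different probe set in each tissue and F10 from another one in WAT, and with 1 probe set a gene for the 3 tissues the counts were 8 and 0.

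A further 61 genes of the same systems, such as receptors, regulators and the vitamin K enzymes, were listed, and 46 were measured. At an adjusted p under 0.05 the count was 0 in each tissue. With an unadjusted p under 0.05 there were 0 higher and 2 lower genes in liver (3.96% and 4.84% of all genes), 1 and 1 in WAT (1.6% and 1.86%), and 2 and 1 in BAT (2.12% and 2.24%). Rank products called 2 higher and 2 lower in liver (3.26% and 1.8% of all genes), 2 and 3 in WAT (2.81% and 1.88%), and 8 and 2 in BAT (2.83% and 1.78%). The median percentile of the SD of the 46 was 75.2 in liver, 85.9 in WAT and 61.5 in BAT (52.6, 56.2 and 52.5 for all genes). The part of wide spread and of single mice in these calls was not tested. The lowest in liver were Cr2, a receptor for C3 fragments, at −1.76 ± 0.64 (exact p 0.00408, adjusted p 0.38), and Cd46, a membrane cofactor for Cfi, at −1.71 ± 0.64 (exact p 0.0111, adjusted p 0.40). The highest there were vitronectin (Vtn) and Cpn1, a subunit of carboxypeptidase N, both at +1.07 ± 0.58. In WAT the lowest were Ggcx, the carboxylase that vitamin K-dependent factors need, at −1.45 ± 0.61 (exact p 0.0157, adjusted p 1), and Cd55 at −1.11 ± 0.58, and the highest were Cpn1 at +1.20 ± 0.59 and Serpina10 at +0.95 ± 0.57. In BAT the lowest were C1qbp at −1.40 ± 0.61 (exact p 0.0198, adjusted p 0.93) and Cd59a at −0.62 ± 0.55. The highest in BAT were Vkorc1, which recycles vitamin K, at +1.59 ± 0.63 (exact p 0.00233, adjusted p 0.93), and Cd55, which breaks up convertases on host cells, at +1.53 ± 0.62 (exact p 0.0111, adjusted p 0.93). The median of the 46 was +0.088 in liver, −0.14 in WAT and +0.34 in BAT.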

How the data were processed

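RNA of 7 water and 7 VAAM mice was measured in liver, WAT and BAT on 42 Affymetrix mouse genome arrays. The authors summarized the arrays with the distribution free weighted method in R (2.7.2 in the submitters' processing notes) and deposited values on a log scale, read here as log2, since no source used here gives the base. Array medians hardly varied within a tissue and differed between tissues. Of 45101 probe sets, 64 controls were left out, 45037 were tested with no minimum level, and 18193 genes were named alone. Probe sets were matched to genes through the platform annotation, and those that name several genes were not used for a gene. The labels do not say that mice of one number are related across tissues. The arrays' number limits the precision.

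The members and the lists of roles, further genes and cell type markers were chosen with earlier results of these data known, as were the motifs. Genes were named by a rule: in each tissue the 3 with the smallest limma p in each direction, those with an exact or limma p under 0.05, and those called by rank products. Every member's level is given, and of the further genes the 2 highest and 2 lowest. Groups were compared with limma 3.58.1 in R 4.3.3 (Benjamini-Hochberg adjustment) and with rank products over 49 pairs of arrays, with 50 permutations (20 where arrays were left out), in Python 3.11.15 with numpy 2.4.6, pandas 2.3.3 and scipy 1.17.1. Both were tested on simulated normal values with large shifts. In the test of rank products every probe set had the same spread, so the unequal spread of these data was not covered. Figures were drawn with matplotlib 3.10.9. An array stood apart where any of the leading 3 components gave it a score beyond 2.2 SD. Alternatives were a replicate block, quantile normalization, only probe sets above the median, a trend and robust prior, array weights, gene means, scaling to unit SD, VAAM mice for the levels, a size limit of 2, and leaving out each array. Leaving out the arrays that stood apart, and 1 probe set a gene for the 3 tissues, were added after the data were seen. The CAAM group was not analysed here.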

Additional observations from a re-analysis of the deposited data

Results flagged for a closer look

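Among the 228 groups of 7 mice that the 38 genes gave in 3 tissues, 21 held a mouse whose gap to its nearest neighbour took more of the group's range than Dixon's limit for 7 values, where chance gives about 1 in 20 groups. It was the highest mouse in 16 and the lowest in 5, and these lay on 11 arrays. Genes on 1 array are not independent of each other.

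In WAT, mouse 1 was the highest for Fga with water (0.891) and with VAAM (0.9), for Serpinf2 with water (0.837) and with VAAM (0.951), and for Klkb1 (0.656) and Kng1 (0.672) with VAAM, and VAAM mouse 1 was the lowest for Cfb (0.775) and Pros1 (0.694). VAAM mouse 7 was the highest for F12 (0.689) and VAAM mouse 6 for F2 (0.588). In BAT, VAAM mouse 3 was the highest for C1qa (0.581), C1qb (0.596), C1qc (0.657), Cfb (0.707) and Cfp (0.7), VAAM mouse 1 for F2 (0.659) and VAAM mouse 6 for Fgb (0.624), while VAAM mouse 4 was the lowest for Plg (0.687) and water mouse 2 for C8a (0.572). In liver, VAAM mouse 6 was the lowest for F11 (0.703) and water mouse 6 the highest for Kng1 (0.571). No cause was tested.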

How the results depend on the processing

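At an adjusted p under 0.05, limma called 0 of 38 genes in each tissue and the test between tissues 0 of 52 probe sets under all alternatives run. Equal mouse numbers were correlated between groups at −0.128 to 0.136 in liver, −0.0786 to 0.478 in WAT and −0.191 to 0.174 in BAT. Of the 7 pairs, 3 in WAT and 2 in each of liver and BAT were over 0.1. Whether equal numbers share more than a number was not tested. A replicate block moved the counts at an unadjusted p under 0.05 from 3 to 4 in liver (Pros1 lost, F3 and Serpinf2 gained), 0 to 1 in WAT (Masp1) and 4 to 3 in BAT (C8b lost). These counts were 1 in liver (Masp2, none of the 3) and 2 in BAT after quantile normalization. With array weights they were 4, 1 and 5 in liver, WAT and BAT, with a trend 4, 0 and 4, and without the arrays standing apart 3, 1 and 5. Leaving out 1 array gave 2 to 4 in liver, 0 to 2 in WAT and 1 to 4 in BAT. For these counts and those of rank products below, the shares of all genes under each alternative are not given here. For rank products, of 7, 4 and 7 genes called in liver, WAT and BAT, unit SD kept none and called 1 other in liver (C8g), 0 in WAT and 0 in BAT, quantile normalization called 2 in WAT and 4 in BAT, probe sets above the median 0 in WAT (fewer were ranked), and 1 array left out gave 6 to 8, 2 to 5 and 5 to 8. The 6 genes higher in WAT than in BAT became 3 at a size limit of 2. Leaving out 1 array kept 30, 33 and 6 of the level counts, which it could hardly move, since mice of a tissue differed far less than the limit. Of the genes given with full statistics or called by rank products, differences turned sign under quantile normalization for C6 (0.053), Masp1 (0.33) and Pros1 (−1.07) in liver, C6 (−0.015), C9 (−0.95), Klkb1 (−0.56) and Proc (−0.62) in WAT and F10 (−0.23) in BAT. As the mean of its probe sets Masp1 in liver was 0.69. With 1 array left out, C6 in liver ran from −0.45 to 0.19 (above 0 without water mouse 2 or, at 0.039, VAAM mouse 1), and in WAT Fga ran from −0.32 to 0.60 and Serpinf2 from −0.40 to 0.58, both lowest without VAAM mouse 1. In BAT, C1qa ran from −0.083 to 0.58, C1qb from −0.018 to 0.60, C1qc from −0.17 to 0.50 and Cfp from −0.35 to 0.45, all lowest without VAAM mouse 3, and without mice 3 and 5 they were −0.46, −0.32, −0.47 and −0.50. The causes were not tested. Quantile normalization left 19 of the 38 genes in liver without spread, so it gave no value for C8g, F10 and Fgb.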
